A study of Talpa occidentalis with 6 samples.

Results

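The mouse Fgf9 locus and its surroundings were examined as 2 Mb of chromosome 14, from 57500001 to 59500000 on the build mm9, in which the deposited segmentations of the mouse ovary and testis divide the sequence into chromatin states. All segments that overlap this interval were taken. They numbered 289 of 428786 in the ovary and 297 of 400401 in the testis, or 586 of 829187 in both. Open chromatin had been profiled by ATAC-seq, which marks DNA that a transposase can reach by the adapters it inserts there, in gonads from mouse embryos at E13.5, the day of gestation. The mouse strain and genotype are not given in the sources used here. The same series profiled wild-type Iberian mole gonads at postnatal day 7, and the question it names is which regulatory elements lie in the open chromatin of moles compared with the mouse. Each mouse gonad has 1 segmentation and no values per sample. No spread between samples and no test between the gonads could be computed, and the sequencing depth is unknown.

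Fgf9 encodes a secreted fibroblast growth factor that signals through FGF receptors on neighbouring cells. In the XY mouse gonad it promotes the proliferation of somatic cells and sustains Sox9, the transcription factor that directs Sertoli cell differentiation, against Wnt4, a signal of the ovarian pathway. Mouse gonads that lack Fgf9 fail to keep the testis fate. At the embryonic stage profiled here, the testis already has cords of Sertoli cells around germ cells, while germ cells of the ovary enter meiosis. Micu2, a regulator of mitochondrial calcium uptake, Zdhhc20, a palmitoyltransferase, and Lats2, a kinase of the Hippo pathway, are among the genes near Fgf9 in the mouse. No mouse gene annotation or genome sequence was used here. No segment below is therefore assigned to a gene, and the interval is described by position.

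The build was told from the ends of the chromosomes. The last segment of chromosome 14 ended at 125194800 in both gonads, which matches the length of that chromosome in mm9 to the 200 bp bin. The submitters' processing notes also name mm9. The states carry the numbers 1 to 5 and form an ordered series: 97.8% of state boundaries in the ovary and 98.2% in the testis joined neighbouring numbers. State 1 is drawn in red and state 5 in white. State 1 was taken as the accessible state from this order and colour alone, and state 2 as the next step. State 3 was the commonest state, with 73.1% of the autosomes in the ovary and 70.9% in the testis. The first segment of each of the 19 autosomes, which ended between 2999800 and 3078800, was in state 5 in both gonads. Mouse assemblies leave the start of these chromosomes unsequenced, so state 5 includes unassembled sequence. The sources used here do not say whether both gonads were segmented with 1 shared model, and the comparisons take a state to mean the same in both.

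The sex chromosomes followed the tissue labels. States 1 to 3 covered 75.9% of the X chromosome in the ovary and 11.0% in the testis, and 0% and 1.80% of the Y chromosome. Because the X chromosome shifts the totals in this way, the autosomes are the background for the values below. States 1 and 2 together covered 14.9% of the autosomes in the ovary and 17.4% in the testis, so a testis excess was present across the autosomes.

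Within the interval, the testis held more of the intermediate state 2 than the ovary, and both gonads held little of state 1. State 1 covered 0.35% of the interval in the ovary and 0.46% in the testis, or 7 kb and 9.2 kb. On the autosomes it covered 0.39% and 0.51%, so its small share was not particular to the interval. State 2 covered 14.3% in the ovary and 19.7% in the testis, against 14.5% and 16.9% on the autosomes. States 1 and 2 together thus covered 293.8 kb in the ovary and 402.2 kb in the testis, 14.7% and 20.1% of the interval. The ratio of testis to ovary was 1.37 in the interval. State 3 made up 81.4% of the interval in the ovary and 76.0% in the testis. States 4 and 5 together made up 3.87% and 3.85%, below the 12.02% and 11.6% of the autosomes. The autosomal shares include the unassembled chromosome starts, which are in state 5.

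**Figure D1:**
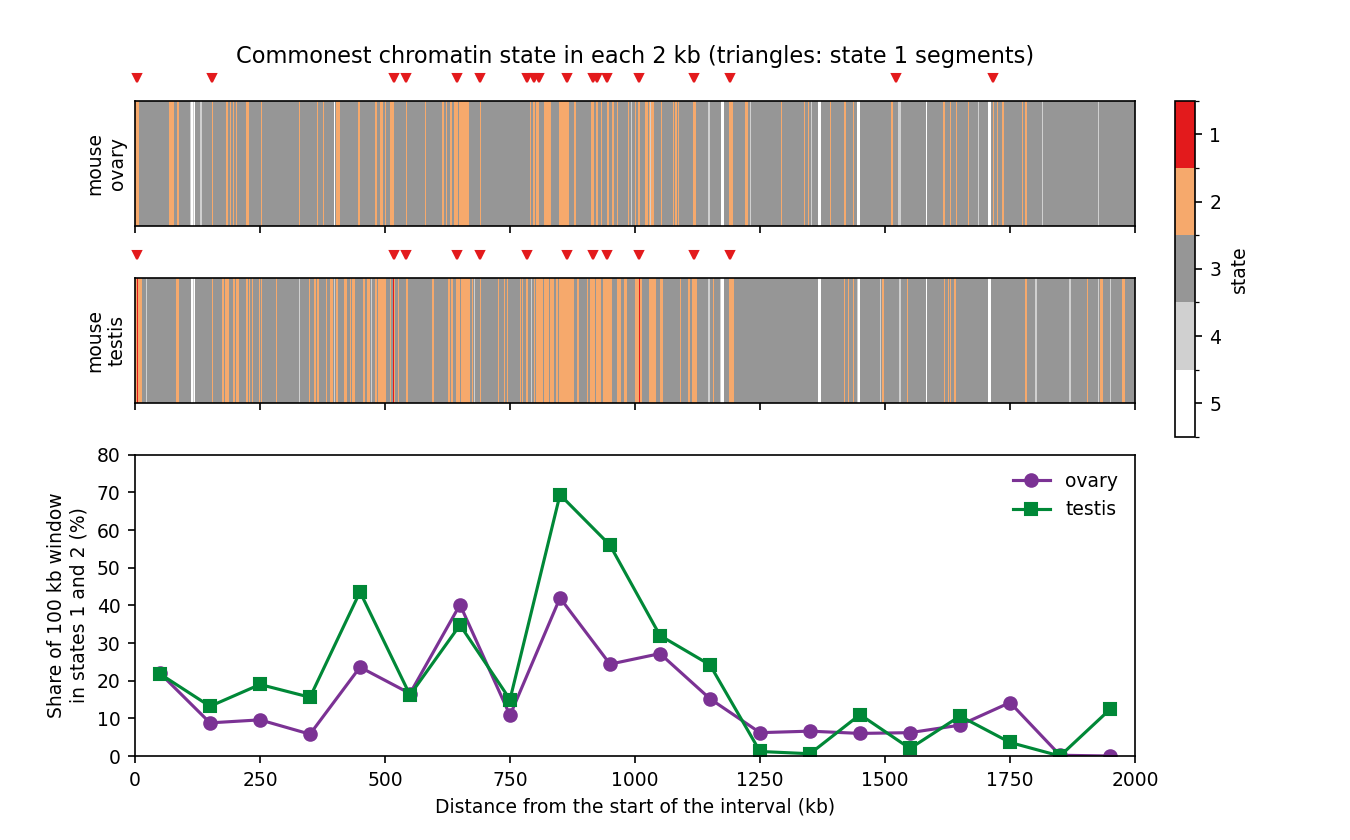
Chromatin states along the 2 Mb interval in the mouse ovary and testis, as the commonest state in each 2 kb (top bands, with triangles at each state 1 segment), and the share of each 100 kb window in states 1 and 2 (bottom, in percent, 1 point per window and gonad). The horizontal axis is the distance from the start of the interval in kb; the widest separation lies in the windows that begin 800 and 900 kb from the start, with 42% and 24.4% in the ovary against 69.4% and 56% in the testis.

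The autosomes were divided into windows of 2 Mb to place these values. Windows with more than 20% of state 5 in a gonad were left out, and the 1151 that remained include the interval itself. The interval's 14.7% in the ovary lay near the median window, 12.9%, and its 20.1% in the testis above the median of 15.1%. The testis exceeded the ovary in 910 of the 1151 windows. The excess in the interval was 5.42 percentage points, against a median of 2.16, and 199 windows had a larger one. As a ratio of testis to ovary, the interval's 1.37 compared with a median of 1.16, and 228 windows had a higher ratio. The interval therefore sat on the testis side of the distribution and inside its bulk, between the 5th percentile of -1.49 and the 95th percentile of 9.21 percentage points.

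**Figure D2:**
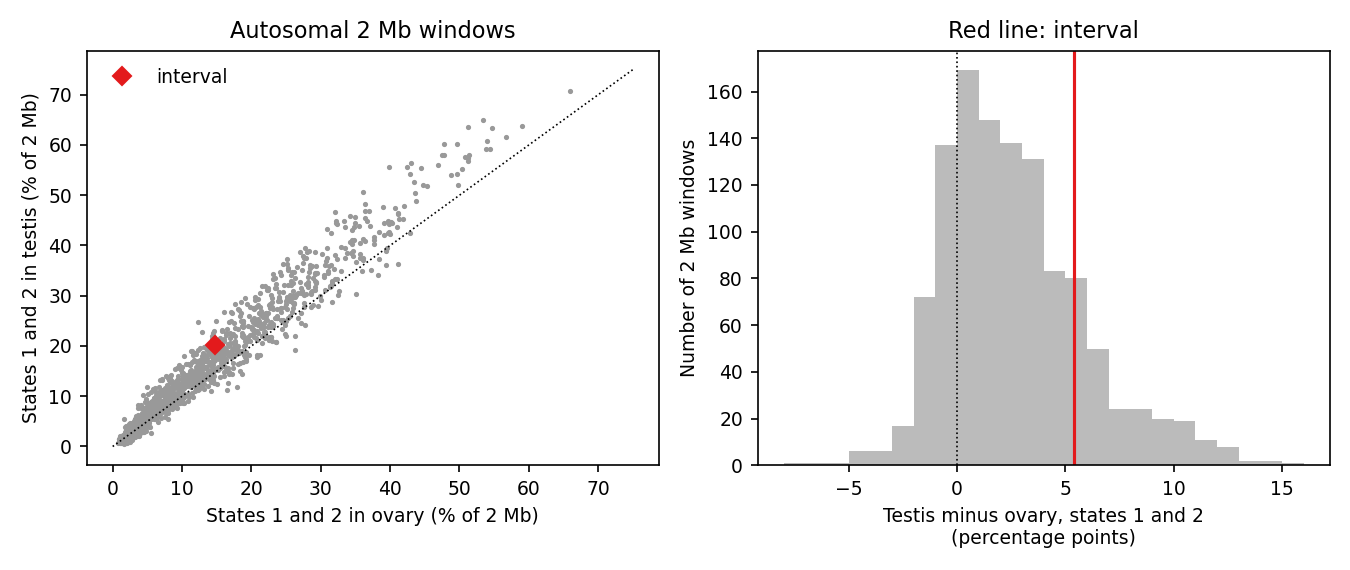
Share of 1151 autosomal windows of 2 Mb in states 1 and 2 in the ovary (horizontal axis, percent) and the testis (vertical axis, percent), with the line of equality dotted, and a histogram of the testis minus ovary difference in percentage points. The interval, in red, lies at 14.7% and 20.1%, and 199 windows have a larger difference than its 5.42 points.

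Bin by bin, the gonads carried the same state over most of the interval, and nearly all differences were a single step. Of the 10000 bins of 200 bp, 7940 had the same state in both gonads, or 79.4%. The states differed in the other 2060 bins, 20.6%, where 19% of autosomal bins and 22.2% of bins over all chromosomes differed. Bins in state 5 in both gonads, which count as the same, made up 1.62% of the interval and 6.19% of the autosomes. The testis lay nearer state 1 in 1312 bins, 13.1%, against a background of 11.1% on the autosomes. The ovary lay nearer state 1 in 748 bins, 7.48%, against 7.86%. The testis thus accounted for 63.7% of the differing bins in the interval and for 58.6% of those on the autosomes. A difference of 2 or more steps occurred in 12 bins, 0.12%, against 0.0723% on the autosomes.

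Most bins in which the testis lay nearer state 1 were in state 3 in the ovary and state 2 in the testis. This pair of states covered 231 kb, while the reverse pair, state 2 in the ovary and state 3 in the testis, covered 122.2 kb. Of the ovary's state 3 bins, 14.2% were in state 2 in the testis, compared with 11.3% on the autosomes. Of its state 2 bins, 55.7% were also in state 2 in the testis and 42.6% in state 3, against 59.0% and 39.6% on the autosomes. Of its state 1 bins, 74.3% stayed in state 1, 20% were in state 2 and 5.71% in state 3 in the testis. The corresponding autosomal shares were 76.2%, 19.9% and 3.88%. State 4 was the state least often kept: 36.8% of the ovary's state 4 bins had state 4 in the testis and 54.9% had state 3, against 54.3% and 38.3% on the autosomes. In the interval this state held 204 ovary bins.

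**Figure D3:**
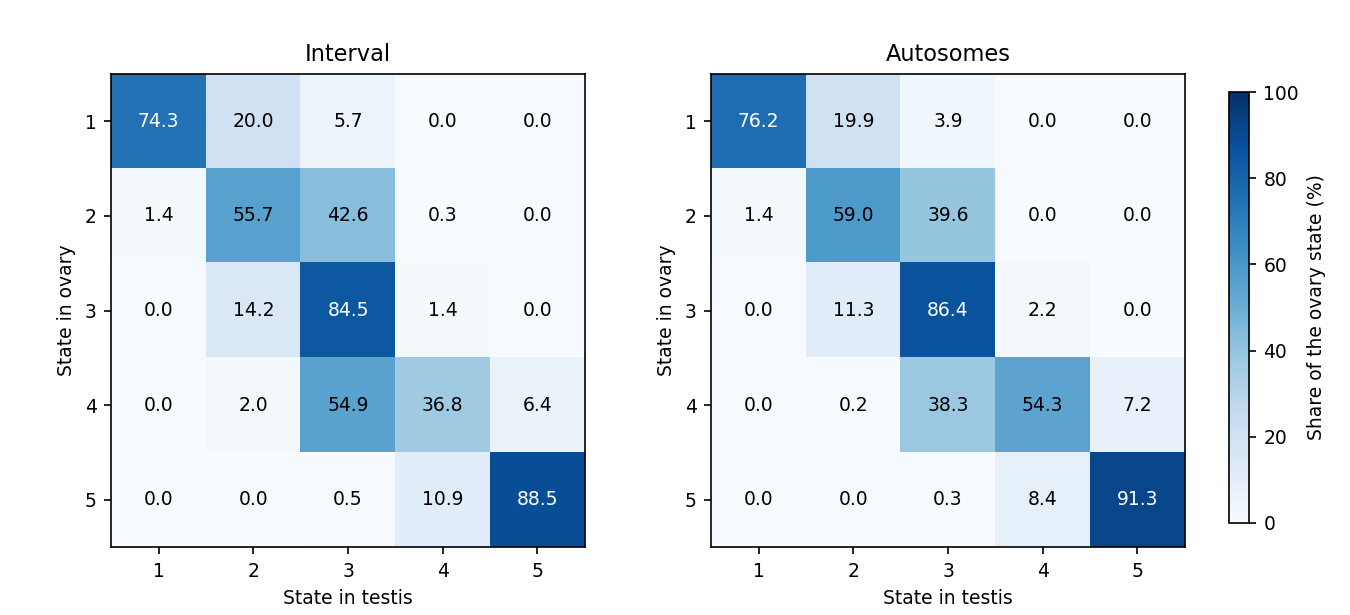
Share of the bins of each ovary state (rows, states 1 to 5) that carried each testis state (columns), in percent, in the interval on the left and on the autosomes on the right. The largest shares lie on the diagonal or 1 step from it, and the step from state 3 in the ovary to state 2 in the testis holds 14.2% in the interval and 11.3% on the autosomes.

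State 1 was found at 18 places in the interval. All 18 were in state 1 in the ovary and 12 of them were also in state 1 in the testis, so no testis segment lacked an ovary counterpart. The ovary thus had 9 segments per Mb and the testis 6, against 7.11 and 6.75 on the autosomes. Of the 1151 autosomal windows of 2 Mb, 290 had more ovary segments than the interval and 508 had more testis segments. Of the 18 ovary segments, 66.7% overlapped a testis segment (Wilson 95% interval 43.7% to 83.7%), where 64.6% of autosomal ovary segments did. Of the 12 testis segments, 100% overlapped an ovary segment (75.8% to 100%), where 67% of autosomal testis segments did. When only segments of at least 400 bp were kept in both gonads, 81.8% of testis segments here did. The intervals cover counting error only, and segments of the same gonad come from the same libraries. In length, 5.2 kb was in state 1 in both gonads, which gave a Jaccard index (shared length over length in either) of 0.473, against 0.495 on the autosomes. For states 1 and 2 together the index was 0.324 in the interval and 0.393 on the autosomes.

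At the shared places the state 1 segment was mostly longer in the testis. It was longer in the testis at 9 of the 12, or 75%, equal at 2 and longer in the ovary at 1. On the autosomes it was longer in the testis at 59.4% of 11120 shared places. The mean state 1 segment of the interval was 389 bp in the ovary and 767 bp in the testis. On the autosomes the means were 551 bp and 755 bp, so the ovary mean was lower in the interval. The share of ovary segments of 200 bp was alike, at 38.9% in the interval and 37.3% on the autosomes. Most segments seen in the ovary alone were of 200 bp. Of the 7 ovary segments of 200 bp, 2 overlapped a testis segment, and of the 11 longer ones, 10 did. The autosomes had the same split, with 23.9% of ovary segments of 200 bp and 88.8% of longer ones overlapping the testis.

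The longest accessible segments of both gonads fell at the same places. The longest in the testis ran from 57504201 to 57506200, over 2000 bp, at the proximal edge of the interval. In the ovary the segment at this place ran from 57505001 to 57505600, over 600 bp, and the rest was in state 2. The next in the testis ran from 58508401 to 58509600, over 1200 bp, and in the ovary from 58508801 to 58509600, over 800 bp. At 58017201 to 58018000 the segments had the same ends in both gonads and spanned 800 bp. The gonads also had the same ends at 58190201 to 58190600, over 400 bp.

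The other long testis segments lay near each other. The first ran from 58416801 to 58417600, over 800 bp, of which the ovary held 400 bp. The second ran from 58444801 to 58445600, over 800 bp, of which the ovary held 600 bp. They belong to the densest stretch of accessible places, from 58283601 to 58509600. This stretch of 226 kb held 8 of the 18 places, 5 of them shared, with 3400 bp of state 1 in the ovary and 4000 bp in the testis. It was singled out after its values were seen.

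The remaining shared places were shorter. At 58042601 to 58043200 and at 58144001 to 58144600 the testis held 600 bp of state 1 and the ovary 200 bp. At 58283601 to 58284200 and at 58364801 to 58365400 the testis held 600 bp and the ovary 400 bp. These 4 places had a wider segment in the testis. At 58617601 to 58618400 the segments were offset, with 600 bp in the testis, 400 bp in the ovary and 200 bp in both. The only shared place with a longer ovary segment was the last, at 58690801 to 58691200, with 400 bp in the ovary and 200 bp in the testis.

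The 6 places accessible in the ovary alone were single bins, apart from 58298601 to 58299000 with 400 bp. At 4 of the 6 the testis was in state 2: this segment and those at 57654801 to 57655000, 58307001 to 58307200 and 58424001 to 58424200. At 59022001 to 59022200 and at 59216801 to 59217000 the testis was in state 3. These last segments were the only ones in state 1 beyond 58700000 in either gonad. They made up 2 of the 18 ovary segments, 11.1%, and 10.5% of autosomal ovary segments were likewise wholly in states 3 to 5 in the testis. No testis segment lay wholly in states 3 to 5 of the ovary, where 3.82% of autosomal testis segments did. None of the 18 ovary or 12 testis segments lay wholly in states 4 and 5 of the other gonad, which was also rare on the autosomes, at 0.0797% of ovary and 0.0778% of testis segments.

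**Figure D4:**
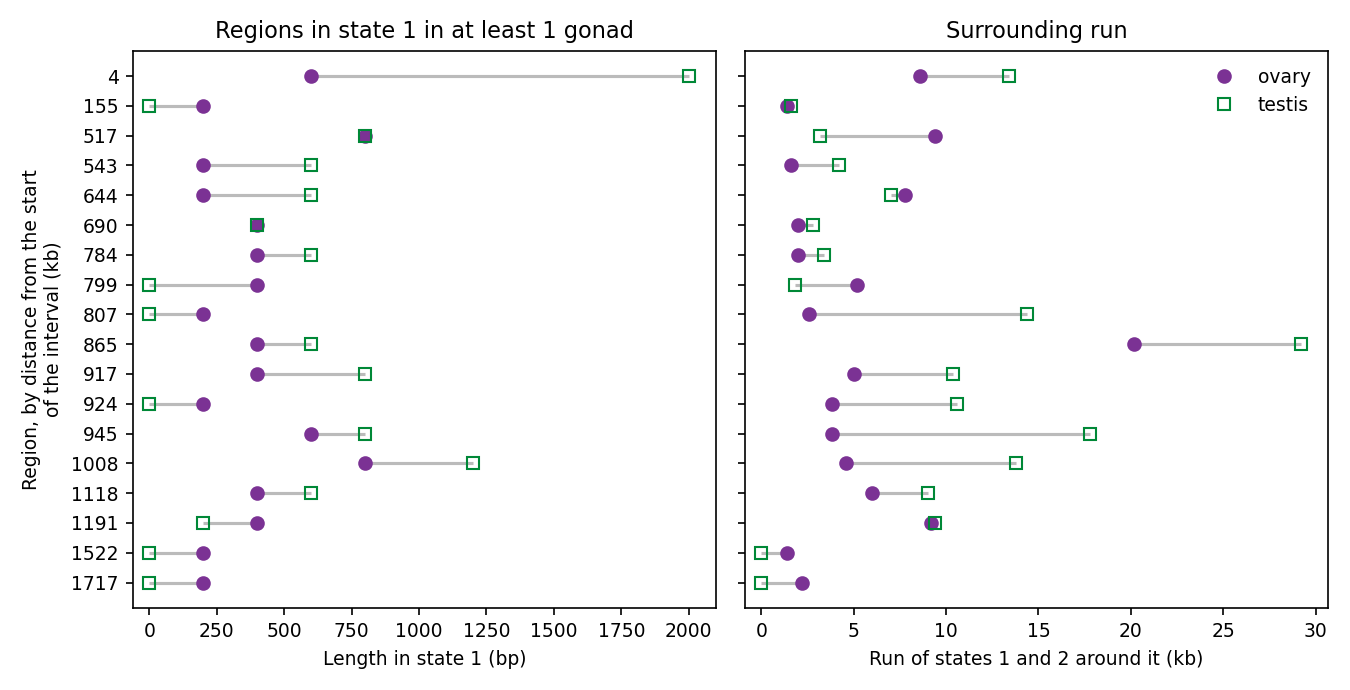
The 18 places of the interval in state 1 in at least 1 gonad, in order of their distance from the interval start (vertical axis, kb), with the length in state 1 (left, bp) and the length of the unbroken run of states 1 and 2 that holds the place (right, kb). Filled circles are the ovary and open squares the testis, and of the 12 places in state 1 in both gonads the testis has the longer state 1 segment at 9 and the longer run at 10.

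The accessible places sat in runs of state 2 that were mostly longer in the testis. Around the 12 shared places, the unbroken run of states 1 and 2 was longer in the testis at 10, or 83.3%, and in the ovary at 2. The testis run was also the longer at 64.1% of the 11120 shared autosomal places. The place at 58444801 to 58445600 lay in a run of 17.8 kb in the testis and of 3.8 kb in the ovary. That at 58508401 to 58509600 lay in a run of 13.8 kb against 4.6 kb. The opposite order held at 58017201 to 58018000, with 3.2 kb in the testis and 9.4 kb in the ovary, although the state 1 segment itself was the same.

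Across the whole interval the testis had 103 such runs and the ovary 92, with medians of 2.4 kb and 2.2 kb. The mean run was 3.9 kb in the testis and 3.19 kb in the ovary. Longer testis runs were general, since the autosomal means were 4.28 kb and 3.46 kb. The testis had 9 runs of at least 10 kb in the interval, which held 136.2 kb or 33.9% of its states 1 and 2. The autosomes had 7.31 such testis runs per 2 Mb, with 37.8% of the length. The ovary had 3 in the interval, which held 53 kb or 18.04%, against 4.95 per 2 Mb and 27.2% on the autosomes. The longest run of both gonads was at the same place, from 58348801 to 58378000 in the testis, over 29.2 kb, and from 58348401 to 58368600 in the ovary, over 20.2 kb.

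Other long runs were matched in the other gonad to very different degrees. The testis run from 58152001 to 58163000, over 11 kb, was wholly in states 1 and 2 in the ovary, at 100%. That from 57500001 to 57513400, cut at the edge of the interval, spanned 13.4 kb and reached 64.2%. The testis run from 58436801 to 58454600, over 17.8 kb, was in states 1 and 2 over 28.1% of its length in the ovary. The testis run from 58301201 to 58315600, over 14.4 kb, reached 27.8% in the ovary and held no state 1 in the testis. The testis run from 57985801 to 58001400, over 15.6 kb, also held no state 1 and reached 55.1% in the ovary. In the ovary, the run from 58148401 to 58167000, over 18.6 kb without state 1, was in states 1 and 2 over 80.6% of its length in the testis. Long runs of state 2 thus occurred both with and without a state 1 segment inside them.

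Some runs of the ovary were low in the testis. The ovary run from 57569001 to 57577400, over 8.4 kb, reached 14.3% in the testis. The run from 57901601 to 57910600, over 9 kb, reached 26.7%. The run from 58519801 to 58525200, over 5.4 kb, was at 0% in the testis, where the whole of it was a step lower. Stretches in which the testis lay nearer state 1 were up to 9.4 kb long, the longest from 58368601 to 58378000, next to the longest shared run. Those in which the ovary lay nearer were up to 5.4 kb long. Their medians were equal, at 1.2 kb, with 150 stretches for the testis and 99 for the ovary.

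The largest differences by states 1 and 2 were in 3 windows of 100 kb, all higher in the testis. From 58300001 to 58400000, states 1 and 2 covered 42% in the ovary and 69.4% in the testis. From 58400001 to 58500000 they covered 24.4% and 56%, an ovary minus testis difference of -31.6 percentage points. From 57900001 to 58000000 they covered 23.6% and 43.6%. These 3 windows were below the 5th percentile of the ovary minus testis difference over 23342 autosomal windows of 100 kb, which was -18.2 percentage points. They were also the 3 of the 20 windows with the fewest bins in the same state, between 55.4% and 57.4%, against an autosomal median of 82%.

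Windows on the testis side were 12 of the 20, or 60%, where 57.9% of autosomal windows were on that side. Outside those 3 windows, the testis exceeded the ovary most from 59400001 to 59500000, with 12.4% against 0%, and from 57800001 to 57900000, with 15.6% against 5.8%. In the opposite direction, the ovary held 14.2% and the testis 3.6% from 59200001 to 59300000. The ovary was also higher from 58800001 to 58900000, with 6.6% against 0.6%, from 58700001 to 58800000, with 6.2% against 1.2%, and from 59000001 to 59100000, with 6.2% against 2%. From 58100001 to 58200000 it held 40.2% and the testis 34.8%. Of these 5 windows, 4 lay beyond 58700000.

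By states 1 to 3 the windows hardly differed. The ovary was higher in 8 windows and the testis in 10, or 50%, where 47.3% of autosomal windows were higher in the testis. The largest differences were 98.6% in the ovary against 93.4% in the testis from 59300001 to 59400000, and 86.6% against 91% from 57600001 to 57700000. In the other named windows the gonads were at most 3.2 percentage points apart.

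The interval fell into unlike parts on either side of 58700000, a division chosen after the values were seen. The first 1200 kb held 16 of the 18 accessible places, and states 1 and 2 covered 20.5% of it in the ovary and 30.1% in the testis. The last 800 kb held the other 2 places, and states 1 and 2 covered 5.95% and 5.17%. The testis lay nearer state 1 in 18.2% of the bins of the first part and the ovary in 8.05%. In the last part the order turned, with 5.53% for the testis and 6.62% for the ovary. The autosomal shares were 11.1% for the testis and 7.86% for the ovary. By the share of states 1 and 2, the order of the last part was not particular to it. Some autosomal windows of 2 Mb with little of these states were higher in the ovary, and others in the testis. Over the 1151 windows, the 5th percentile was 2.2% in the ovary and 1.96% in the testis, while the medians were 12.9% and 15.1%. How often low windows have this order, and their order bin by bin, was not tested. The same state was found in 73.8% of bins in the first part and in 87.9% in the last.

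The longest stretches with neither state 1 nor state 2 in either gonad lay mostly in the distal part. They ran from 59298201 to 59365600, over 67.4 kb, from 57602801 to 57654000, over 51.2 kb, and from 59167601 to 59216000, over 48.4 kb. The third ended 800 bp before the ovary segment at 59216801. States 4 and 5 were shared by both gonads in 14 short runs that added up to 54 kb. The longest were from 57611001 to 57620000, over 9 kb, from 58670801 to 58678400, over 7.6 kb, and from 58943601 to 58950600, over 7 kb.

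The 12 bins that differed by 2 or more steps formed 7 regions. The longest, from 59045001 to 59045800, was in state 4 in the ovary and state 2 in the testis over 800 bp. The next, from 57828601 to 57829200, was in state 2 in the ovary and state 4 in the testis over 600 bp. The other 5 were single bins. They included the distal ovary segments described above, where state 1 in the ovary met state 3 in the testis. At 58291201 to 58291400 state 2 in the ovary met state 4 in the testis, at 58678401 to 58678600 state 3 met state 5, and at 57897601 to 57897800 state 5 in the ovary met state 3 in the testis.

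The positions of state boundaries were shared only in part. Of the 288 boundaries of the ovary in the interval, 42 lay at the same base in the testis, or 14.6%, against 12.7% on the autosomes, and 52.1% had a testis boundary within 1 kb. Of the 296 boundaries of the testis, 44.6% had an ovary boundary within 1 kb. On the autosomes, 50.3% of ovary and 52.5% of testis boundaries lay within 1 kb of one in the other gonad.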

How the data were processed

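The measured data were ATAC-seq libraries of mouse gonads, deposited by the authors as 1 segmentation per gonad. Per the file headers the segmentations were made with EpiCSeg. STAR 2.6.1d and mm9 are named in the submitters' processing notes, with no role. The deposited values are state numbers from 1 to 5, categories without a scale, on segments whose ends are multiples of 200 bp. The sources used here do not say whether replicates were pooled, and the depth is unknown.

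Segments were cut at the interval edges and laid on 200 bp bins with Python 3.11.15, numpy 2.4.6 and pandas 2.3.3. Segments overlapping by at least 1 bp were counted as shared. Background windows with more than 20% of state 5 in a gonad were left out. Wilson intervals were computed with statsmodels 0.14.6. Neighbouring bins are not independent, so no p-value was computed. The overlap measures were checked on simulated segmentations in which shared segments had the same ends in both gonads. Offset, partial and single-bin overlaps were not part of that check. Regions were named by a rule: the 5 longest state 1 segments of each gonad, all those 2 or more steps lower in the other, the 5 most different windows in each direction and the 3 longest low runs. The interval and measures were chosen with earlier results of the series known. The planned values at gene starts and around Fgf9 were not run without a mouse annotation. The 6 mole samples enter no comparison here. Positions are 1-based.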

Additional observations from a re-analysis of the deposited data

How the results depend on the processing

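Of 52 values recomputed under an alternative, 27 stayed within the 95% interval of the reported value, or for counts within 1.5 times of it, and 25 moved. For shares of bins, this interval treats neighbouring bins as independent and is too narrow. The tally therefore sorts the values and does not measure how robust they are. Whole segments in place of cut ones moved none. In the middle 1 Mb of the interval, state 1 covered 0.58% in the ovary and 0.72% in the testis, state 2 covered 18.9% and 25.3%, state 3 covered 77% and 70.8%, and states 4 and 5 covered 3.48% and 3.18%. The same state was then found in 77.1% of bins and the testis lay nearer state 1 in 14.98%. With states grouped into 1, 2 to 3 and 4 to 5, 97.4% of bins agreed, since the step between states 2 and 3 falls inside a group. With 2 or more steps required, the ovary was nearer state 1 in 0.07% of bins and the testis in 0.05%. These shares rest on 12 bins in all, too few to compare the directions. Divided at 58700000, chosen after seeing the data, the ovary was nearer in 8.05% of the first 1200 kb and 6.62% of the last 800 kb, and the testis in 18.2% and 5.53%.

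With states 1 and 2 together, the segments numbered 92 in the ovary and 103 in the testis, 48.5% of the testis segments were shared and the Jaccard index was 0.324, against 55.6% and 0.393 on the autosomes. With segments of at least 400 bp, the ovary had 11 segments and the testis 11, so the larger number in the ovary rests on single bins. At this length 81.8% of testis segments were shared, so the 100% also rests in part on single ovary bins. When the overlap had to reach 50% of a segment, 66.7% of testis segments were shared. The autosomal share by this rule is not given here, and the autosomal 67% counts any overlap, so the 2 are not comparable. By 2 or more steps, 2 ovary segments were lower in the testis. By states 1 to 3, the testis was higher in 17% of 20 kb windows, where 69 of 100 windows were tied. Values at gene starts and around Fgf9 were not run. No paired analysis was possible because the mouse segmentations carry no replicate numbers, and leaving out a replicate was not possible for the same reason.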
